A study of Mus musculus with 11 samples.

Results

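Of the 11 RNA-seq libraries in the series, 7 came from irradiated hearts, and these 7 make up the comparison described here: 3 libraries of FLASH proton radiotherapy (F-PRT) against 4 of standard proton radiotherapy (S-PRT), chosen by their treatment label alone. All were made from the apex of C57BL/6 mouse hearts that received focal irradiation with 40 Gy of protons and were collected 2 weeks later, so that F-PRT and S-PRT shared strain, tissue, dose and time and differed in dose rate. In FLASH the dose is given at an ultra-high rate. The other 4 libraries, from unirradiated apexes (NR), entered no test and are given only as a reference level. The question was whether the delivery mode, at an equal dose, was accompanied by a difference in gene expression, in particular of inflammatory and fibrotic genes. The titles number S-PRT and NR 1 to 4 and F-PRT 2 to 4, and per-library values below follow that order. No label ties a library to an animal, so each test is set against the variation among these libraries, part of which may be technical.

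Ionising radiation breaks DNA, and damaged cells stabilise p53, which turns on cell cycle inhibitors such as Cdkn1a. In the irradiated heart, capillary endothelium is injured, monocytes and macrophages enter, interferon-responsive genes can be induced by misplaced nucleic acid, and fibroblasts under TGF-beta lay down collagen as scar. FLASH delivery is studied because normal tissue has been reported to tolerate it better than the same dose at a conventional rate.

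Expected counts, which are reads per gene with ambiguous reads shared by a model, summed per library to 23655699 to 40136578 in S-PRT, 20758170 to 28571465 in F-PRT and 27780213 to 37372372 in NR. Levels are given as CPM, counts relative to the TMM-scaled library total. The tissue label was matched by its markers: 6 cardiomyocyte markers summed to 25700 to 29700 TPM in S-PRT and 29100 to 52100 in F-PRT. Such sums check the tissue and do not compare the groups. TPM have a fixed sum, so nuclear genes stand higher where the mitochondrially encoded share is low. That share of TPM was 39.99%, 49.65% and 30.88% in F-PRT and 47.41% to 50.47% in S-PRT. Markers of atrium summed to at most 0.65 TPM in the irradiated libraries, of adipocytes to at most 0.19, of lung to at most 0.27 and of skeletal muscle to at most 0.32. The libraries did not sort fully by dose rate on any of the first 3 principal components. On the first principal component of log2 CPM (31.4% of the variance), S-PRT 3 and 4 had the highest scores and F-PRT 4 the lowest. S-PRT 1, S-PRT 2 and F-PRT 3 lay together on the first 2 components. On the third (14.6%) F-PRT 3 at 31 and F-PRT 2 at 14.7 lay above every S-PRT library (-18.9 to 1). F-PRT 4, at -5.2, lay among the S-PRT libraries there. The root mean square difference in log2 CPM between an F-PRT and an S-PRT library had a median of 0.555 (0.456 to 0.68), against 0.566 (0.535 to 0.629) within F-PRT and 0.536 (0.371 to 0.563) within S-PRT. The difference between group means held 21.2% of the variance summed over genes. With so few libraries any grouping holds some share, and the share of other groupings was not computed. The value is therefore no measure of an effect of dose rate.

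**Figure D1:**
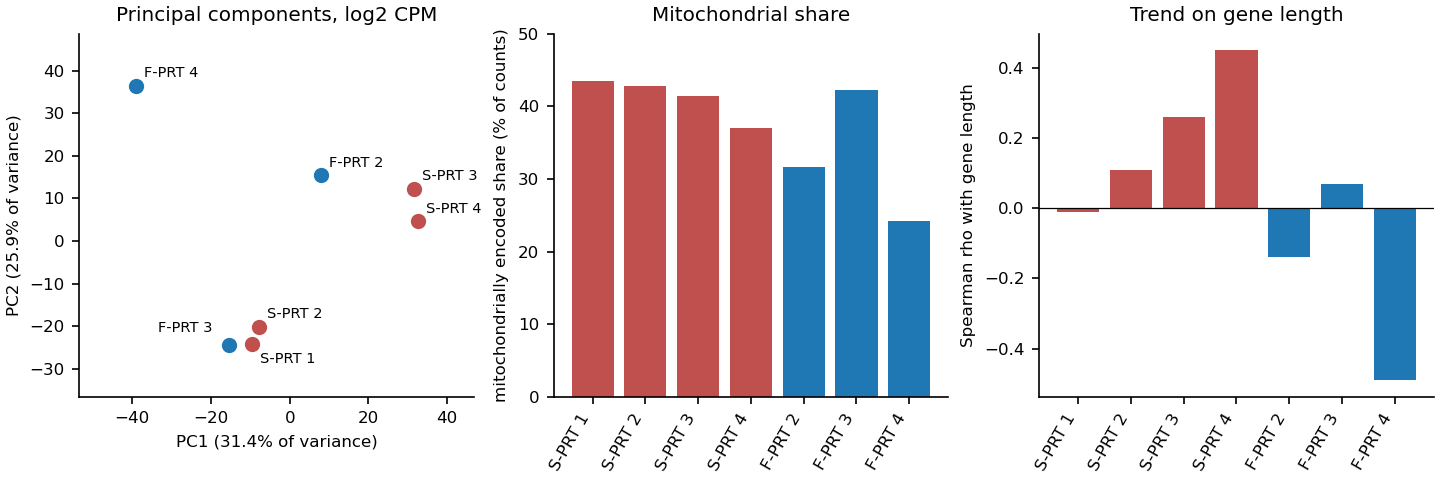
Principal component scores of the 7 libraries (left), the share of counts from mitochondrially encoded genes in percent (middle) and the Spearman correlation over 14248 genes of log2 CPM, centred per gene, with deposited gene length (right). Red is S-PRT and blue is F-PRT. On the first 2 components F-PRT 3 lies beside S-PRT 1 and 2. F-PRT 4 stands apart with the lowest mitochondrial share (24.18%) and the most negative length correlation (-0.49).

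No gene passed the test between F-PRT and S-PRT. Of 14248 genes tested with edgeR's quasi-likelihood test, 0 (0%) passed a Benjamini-Hochberg adjusted p of 0.05, and the smallest adjusted p was 0.18. At an unadjusted p under 0.05, 1438 genes (10.1%) were found, 729 with higher values in F-PRT (5.12%) and 709 with lower values (4.98%). All 3 F-PRT libraries lay above all 4 S-PRT libraries in 779 genes (5.47%) and below them in 743 (5.21%). DESeq2 on the same counts called 34 genes, 13 higher and 21 lower. Limma on log2(TPM + 1) called 4, limma-voom with sample quality weights called 1, and edgeR without a filter on low counts called 72, of which 27 were among DESeq2's 34.

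The absence of calls does not show that the modes acted alike. The 95% interval of a log2 fold change had a median half-width of 0.38, or 1.3-fold. It lay within 2-fold in both directions for 11395 genes (80%) and within 1.5-fold for 7096 (49.8%). Estimated differences beyond 2-fold, called in none of them by edgeR, were found in 229 genes, 91 higher and 138 lower. In what follows every fold change is F-PRT over S-PRT on the log2 scale, from 3 and 4 libraries, with a standard error after the ±. That error was derived from the edgeR test, which borrows information on variation across genes. It is not the plain spread of the libraries of that gene. "Below" or "above" describes the libraries and is not a call. The lists were chosen with earlier results of these data known, so counts of their members are a description and no separate test. Every count of list members is to be read beside the shares of all genes tested. At an unadjusted p under 0.05 these were 5.12% higher and 4.98% lower, and without overlap 5.47% above and 5.21% below.

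Collagen transcripts were lower in F-PRT on average in every one of 22 tested genes. Their median log2 fold change was -0.68, beside 0.002 over all genes tested. At an unadjusted p under 0.05, 14 of the 22 had lower values, against 4.98% of all genes, and in 3 of the 22 all F-PRT libraries lay below all S-PRT libraries, against 5.21%. Col1a1, the main chain of fibrillar type I collagen, was at 59.5, 65.1, 128 and 97.5 CPM in S-PRT and 66.3, 33.6 and 54.2 CPM in F-PRT, a log2 fold change of -0.77 ± 0.29. The ranges overlapped, since S-PRT 1 and 2 were no higher than F-PRT 2. Col3a1, which forms fibrils with type I collagen, overlapped too: 147, 163, 313 and 241 CPM in S-PRT and 152, 85.2 and 145 CPM in F-PRT (-0.76 ± 0.28). Col6a1, of the microfibrils that surround cells, was at 43.1, 50, 82.3 and 75.5 CPM in S-PRT and 43.5, 27.0 and 37.7 CPM in F-PRT (-0.80 ± 0.24). S-PRT 3 and 4 were the high libraries in each of these genes. Col4a5, a basement membrane collagen, was the tightest member, at 21.7 to 24.3 CPM in S-PRT and 15.4 to 19.9 CPM in F-PRT, without overlap (-0.39 ± 0.11), although on log2(TPM + 1) its sign was positive (0.05). The NR range was wide and covered every F-PRT library, at 33.5 to 104 CPM for Col1a1 and 72 to 218 CPM for Col3a1. In bulk tissue fewer cells of a type and less RNA per cell cannot be told apart. The sum of 3 fibroblast markers was 98.1 to 135 TPM in S-PRT and 54.2 to 179 TPM in F-PRT. Most of it came from 1 marker that is also a matrix gene. The 179 TPM were in F-PRT 4, where the low mitochondrial share raises TPM of nuclear genes, so these sums and the CPM above are on unlike scales. The part of the fibroblast markers in the collagen values was not tested.

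The collagen values varied with the library left out and were smaller with a trend on gene length removed. As a mean over members relative to the S-PRT mean (log2), the collagens scored -0.48, -0.26, 0.45 and 0.29 in S-PRT, -0.26, -1.05 and -0.49 in F-PRT and -0.81 to 0.24 in NR. F-PRT 2 thus lay within the range of S-PRT, F-PRT 4 just below it, and F-PRT 3 was the lowest. Without F-PRT 3 the median was -0.47 and 5 members had an unadjusted p under 0.05. Without S-PRT 3 these were -0.52 and 3 members, and without S-PRT 4 they were -0.59 and 5 members. Collagen genes are long, with a median deposited length of 5247 bases against 2499 for all genes tested. With each library's trend on length removed, the median was -0.42 and 4 members were under 0.05. The scaling also moved them: with library size in place of TMM, where the median over all genes was 0.19, the collagen median was -0.48 and no member was under 0.05, and on log2(TPM + 1), where the median over all genes was 0.18, it was -0.23. The number of negative members was 21 of 22 with library size and with the length trend removed, and 15 of the 17 that reached a mean of 1 TPM on log2(TPM + 1). None of these 17 was under 0.05 on log2(TPM + 1).

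**Figure D2:**
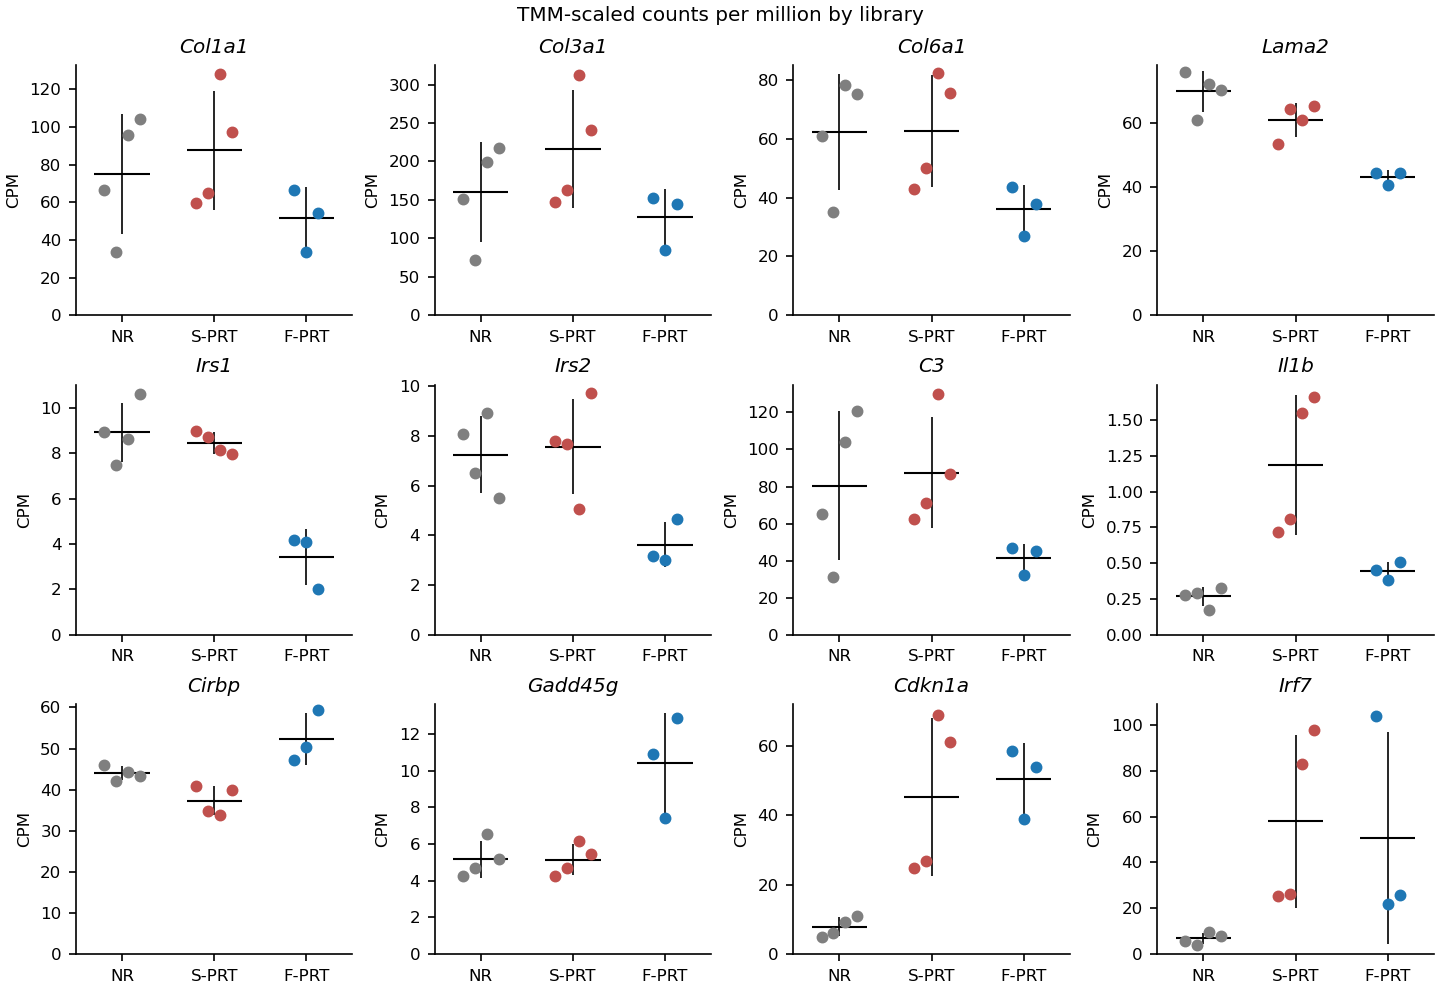
CPM of 12 genes in each NR, S-PRT and F-PRT library, with the group mean (horizontal line) and SD (vertical line; n = 4, 4 and 3). Lama2, Irs1, Irs2, C3 and Il1b show 3 F-PRT libraries below 4 S-PRT libraries, Cirbp and Gadd45g show them above, and Col1a1, Col3a1, Col6a1, Cdkn1a and Irf7 overlap.

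The glycoproteins and proteoglycans that hold matrix together followed the collagens. Of 34 tested, 33 had lower F-PRT values (median -0.46), 16 had an unadjusted p under 0.05 (4.98% of all genes had lower values at that p) and 7 had all F-PRT libraries below all S-PRT libraries (5.21% of all genes). Lama2, the laminin chain that anchors muscle fibres to the basement membrane, was at 53.6, 64.5, 61.1 and 65.3 CPM in S-PRT and 44.4, 40.7 and 44.5 CPM in F-PRT (-0.50 ± 0.10). No F-PRT library reached the S-PRT or the NR range, the latter 61.1 to 76.1 CPM, and DESeq2 called it with an adjusted p of 0.0073. Lamc1, the common laminin gamma chain, was at 77.7 to 122 CPM in S-PRT and 56.3 to 71.2 CPM in F-PRT, also without overlap (-0.60 ± 0.17, but 0.24 on log2(TPM + 1)). Tnxb, a tenascin of loose connective tissue, was at 46.9 to 62.1 CPM in S-PRT and 30.5 to 46 CPM in F-PRT (-0.48 ± 0.15, but -0.10 with the length trend removed). Fn1, fibronectin, overlapped: 15.2, 16.9, 47.5 and 46.7 CPM in S-PRT and 31.3, 13.4 and 14.5 CPM in F-PRT (-0.68 ± 0.46, but 0.26 on log2(TPM + 1)). With the length trend removed the median of the 34 was -0.39 and 13 were under 0.05. Without F-PRT 3 the number under 0.05 was 9, and without S-PRT 3 it was 10. With library size in place of TMM the median was -0.25 and none was under 0.05. On log2(TPM + 1) it was -0.11, with 19 negative, 9 positive and none under 0.05.

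Of 18 markers of fibroblasts themselves, 4 had lower values at an unadjusted p under 0.05 (4.98% of all genes) and 1 was without overlap (5.21%). These markers had a median of -0.38, with 17 of 18 lower. Without F-PRT 4, in which they scored 0.16, they had a median of -0.69 and 14 under 0.05, and without F-PRT 3, in which they scored -0.93, a median of -0.12 and 1 under 0.05. Leaving out S-PRT 2, S-PRT 3, S-PRT 4 or F-PRT 2 gave 2 under 0.05. On log2(TPM + 1) the median of these markers was -0.15, with 16 negative, 2 positive and none under 0.05. Pdgfra, the receptor that marks resident fibroblasts, was at 10.9, 12.6, 12.6 and 11.9 CPM in S-PRT and 7.14, 6.46 and 11.5 CPM in F-PRT (-0.51 ± 0.19). F-PRT 2 and 3 were below all S-PRT libraries and F-PRT 4 was not, while NR lay at 12.2 to 26.9 CPM. Of 16 markers of activated fibroblasts, 15 were lower (median -0.46) and 3 were under 0.05, all 3 with no overlap, beside 4.98% and 5.21% of all genes. Their median was -0.21 without S-PRT 3 and -0.28 without F-PRT 3. On log2(TPM + 1) it was -0.23, with 7 negative, 2 positive and none under 0.05. Cilp, a matrix protein of activated cardiac fibroblasts, was at 5.91, 5.25, 11.9 and 6.67 CPM in S-PRT and 4.22, 1.64 and 4.14 CPM in F-PRT (-1.13 ± 0.36). Ddah1, an enzyme that degrades an inhibitor of nitric oxide synthesis, was at 3.97 to 7.3 CPM and 2.44 to 3.34 CPM (-0.82 ± 0.24). Postn, periostin, overlapped widely, at 16.2, 17.2, 65.3 and 36.9 CPM against 38.9, 13.5 and 16.9 CPM (-0.56 ± 0.51). Acta2, smooth muscle actin, was at 37.2 to 91.4 CPM against 22.8 to 55.7 CPM (-0.64 ± 0.34).

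Crosslinking enzymes, proteases and their inhibitors had a median of -0.23 over 29 genes. Of these, 3 were under 0.05 with lower values (4.98% of all genes) and 2 were below without overlap (5.21%). The median was -0.10 without F-PRT 3, -0.14 without S-PRT 3 and -0.45 without F-PRT 4, and the number under 0.05 ran from 1 without S-PRT 3 to 7 without S-PRT 1. Loxl2, a lysyl oxidase that crosslinks collagen, was at 12.9 to 30.8 CPM in S-PRT and 7.61 to 14.3 CPM in F-PRT (-0.95 ± 0.31). Its expected counts were whole in none of the 7 libraries, which means that at least some reads were divided with other genes. How many was not measured, and the level may be uncertain. Timp1, an inhibitor of matrix metalloproteinases, was at 1.03 to 3.73 CPM against 0.712 to 2.44 CPM (-0.24 ± 0.51), with overlapping ranges. TGF-beta signalling had a median of -0.15 over 28 genes. Of these, 2 were under 0.05 with higher values (5.12% of all genes) and 2 with lower values (4.98%). Without overlap, 3 were below (5.21%) and 0 above (5.47%). The ligand Tgfb1 was at 16 to 26.6 CPM in S-PRT and 14.0 to 24.5 CPM in F-PRT (-0.13 ± 0.22), an interval from -0.61 to 0.36, and 0.08 with library size in place of TMM. The co-receptor Tgfbr3 was at 24 to 28.6 CPM in S-PRT and 17.8 to 21.4 CPM in F-PRT (-0.39 ± 0.11), without overlap. Smad7, the feedback inhibitor of the pathway, was at 6.24, 6.16, 7.51 and 9.43 CPM in S-PRT and 11.5, 9.36 and 10.9 CPM in F-PRT (0.52 ± 0.17), with F-PRT 3 just below S-PRT 4.

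**Figure D3:**
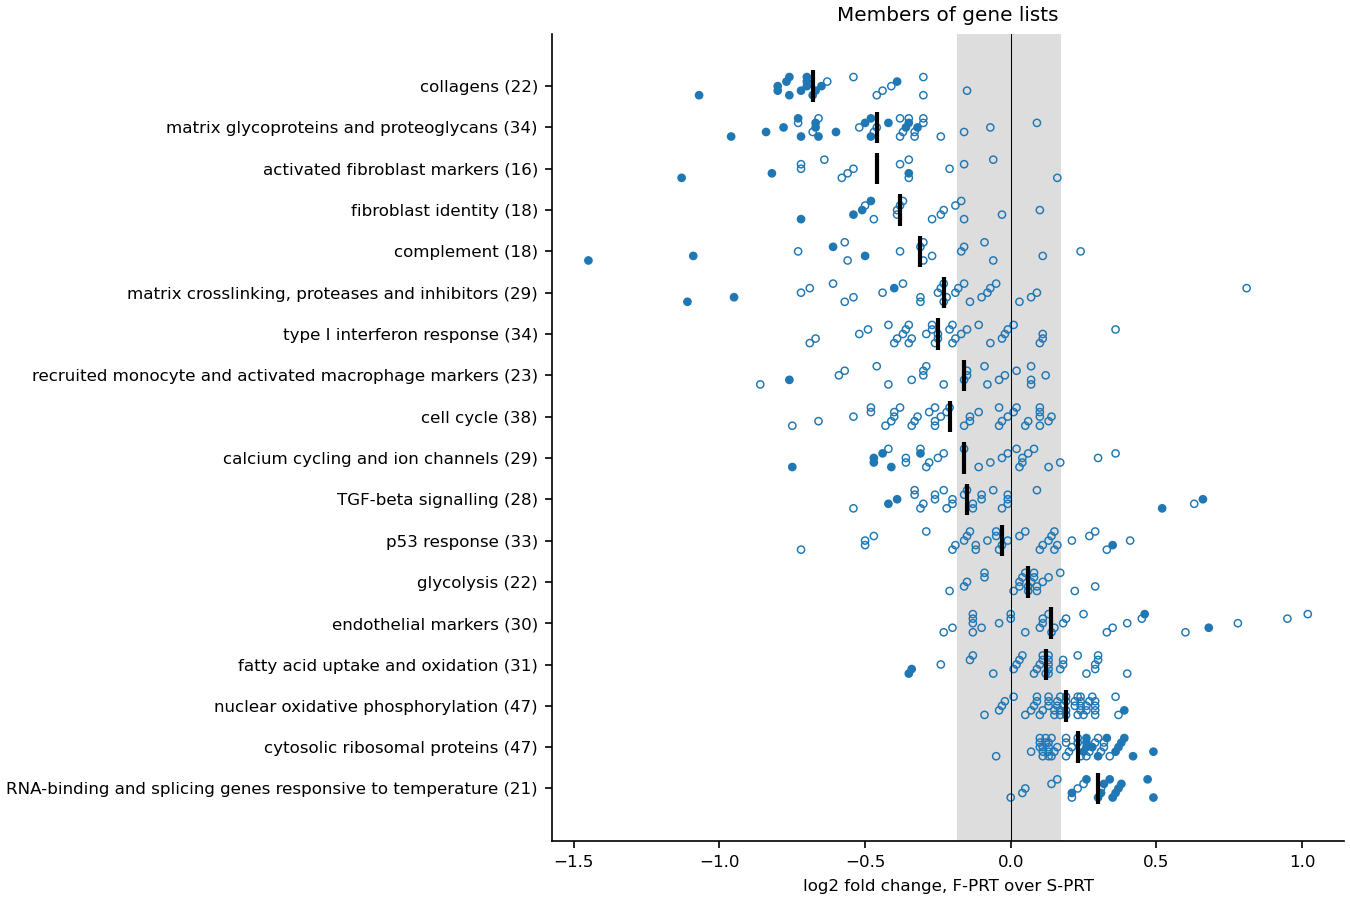
Log2 fold change, F-PRT over S-PRT, of each tested member of 18 gene lists, with the number of tested members in brackets. Filled circles have an unadjusted edgeR p under 0.05, no member passed adjustment, black bars are list medians and the grey band holds the middle 50% of all tested genes (-0.18 to 0.17). Collagens (median -0.68) and matrix glycoproteins (-0.46) lie left of the band and the RNA-binding and splicing genes (0.30) right of it.

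Both insulin receptor substrates had lower values in every F-PRT library than in any S-PRT library. Irs1 and Irs2 are adaptor proteins that pass the signal of the insulin and IGF1 receptors to PI3 kinase, and Irs2 is a known target of FOXO factors, which are active when insulin is low. Irs1 was at 8.98, 8.74, 8.15 and 7.98 CPM in S-PRT and 4.19, 4.11 and 2.01 CPM in F-PRT, a log2 fold change of -1.32 ± 0.24 (95% interval -1.85 to -0.79). The S-PRT libraries were within the NR range of 7.48 to 10.6 CPM, and each F-PRT library was below both. Its edgeR adjusted p was 0.41 and its DESeq2 adjusted p 0.00081. The expected counts of Irs1 were whole in none of the 7 libraries, so at least some of its reads were divided. How many was not measured, and its level may be uncertain. Irs2, whose counts were whole in all 7, was at 7.8, 7.69, 5.06 and 9.71 CPM in S-PRT and 3.18, 3.01 and 4.65 CPM in F-PRT (-1.05 ± 0.24, interval -1.60 to -0.51), with NR at 5.49 to 8.91 CPM. Again no F-PRT library reached the lowest S-PRT or NR library. Both genes stood in a list of 20 genes responsive to glucocorticoids and feeding. In it 4 genes, Irs1 and Irs2 among them, had lower values at an unadjusted p under 0.05 (4.98% of all genes). All 4 were without overlap (5.21% of all genes), and 1 gene had a higher value (5.12%). The median of the list was 0.04.

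The 150 bases before the annotated start are shown for Irs1 and Irs2, whose values in F-PRT were low together, and for Col1a2 as a collagen. The sequences are RefSeq's on GRCm38.p6, printed 5′ to 3′ on the strand of the gene. Capitals mark the E-box CACGTG and the FOXO-type element TGTTTTG in the first 2 and the CCAAT box in Col1a2. Genes, windows and motifs were chosen after the values and sequences were seen.
Irs1, chr1:82291440-82291589, minus strand: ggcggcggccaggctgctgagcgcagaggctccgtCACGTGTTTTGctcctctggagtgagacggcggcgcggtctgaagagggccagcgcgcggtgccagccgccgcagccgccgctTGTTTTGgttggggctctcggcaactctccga
Irs2, chr8:11008930-11009079, minus strand: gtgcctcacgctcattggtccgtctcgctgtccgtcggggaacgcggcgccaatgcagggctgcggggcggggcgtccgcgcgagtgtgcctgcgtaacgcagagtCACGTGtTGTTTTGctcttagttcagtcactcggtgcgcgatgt
Col1a2, chr6:4505468-4505617, plus strand: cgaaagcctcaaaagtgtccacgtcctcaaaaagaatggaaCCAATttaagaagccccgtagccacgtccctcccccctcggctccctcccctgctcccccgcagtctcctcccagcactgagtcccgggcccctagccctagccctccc
Irs1 and Irs2 each had CACGTG next to TGTTTTG, starting 115 and 111 bases before the start in Irs1, where they overlap, and 44 and 37 bases before it in Irs2. Irs1 had another TGTTTTG at 32 bases. On either strand of the 250 bases before the first listed start, CACGTG was found in 8.4% of 10610 tested genes with a promoter in the table, TGTTTTG in 3.8% and both in 37 genes, or 0.35%. CCAAT was found in 36.2% of the tested genes and in 7 of 17 collagen genes. A match describes the letters and is not a binding site.

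The other 14 genes with the smallest p among lower values ranged from -1.24 to -0.49, and in each all 3 F-PRT libraries lay below all 4 S-PRT libraries. They were chosen by their p, so the separation is a description. Tmtc3, an enzyme that mannosylates cadherins in the endoplasmic reticulum, was at 10.2, 10.1, 12.1 and 11.1 CPM in S-PRT and 6.32, 7.06 and 6.54 CPM in F-PRT (-0.71 ± 0.12). Hipk2, a kinase that phosphorylates p53 after DNA damage, was at 22.4, 22.9, 28.6 and 30 CPM against 11.7, 16.4 and 8.81 CPM (-1.09 ± 0.20), with no whole counts. Sgcd, delta-sarcoglycan, part of the membrane complex that ties the muscle cell to laminin, was at 9.03 to 11.3 CPM against 4.56 to 6.79 CPM (-0.84 ± 0.17). F-PRT libraries of Lama2 and Sgcd, both genes of the link between cardiomyocyte and matrix, all lay below the NR range (9.67 to 13.4 CPM for Sgcd). Aqp4, a water channel, was at 3.17 to 4.77 CPM against 1.53 to 2.02 CPM (-1.10 ± 0.21). The related ABC transporters Abca6 and Abca8a were at 3.53 to 4.53 against 1.57 to 2.24 CPM (-1.08 ± 0.20) and 29.5 to 35.9 against 20.9 to 26 CPM (-0.52 ± 0.12). On log2(TPM + 1) Abca8a had the opposite sign (0.40). The others were the Ras regulator Rasal2 (-0.56 ± 0.12, but -0.26 with the length trend removed), the semaphorin Sema3c (-0.53 ± 0.12), the protocadherin Pcdhgc3 (-0.90 ± 0.20, no whole counts), the endoplasmic reticulum tether Pdzd8 (-0.49 ± 0.11), the glycosyltransferase B3gnt2 (-1.02 ± 0.23) and the nuclear corepressor Lcor (-1.24 ± 0.28). All 3 F-PRT libraries were outside the NR range in 14 of the 15 genes and all 4 S-PRT libraries in 3. Over all genes tested the shares were 31.9% for F-PRT and 14.4% for S-PRT. Choosing genes by low F-PRT values also favours F-PRT values outside NR, so the 14 are no separate result. The shares are unlike too, since 3 libraries fall outside a range more easily than 4. The 15 genes had a median deposited length of 4832 bases.

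**Figure D4:**
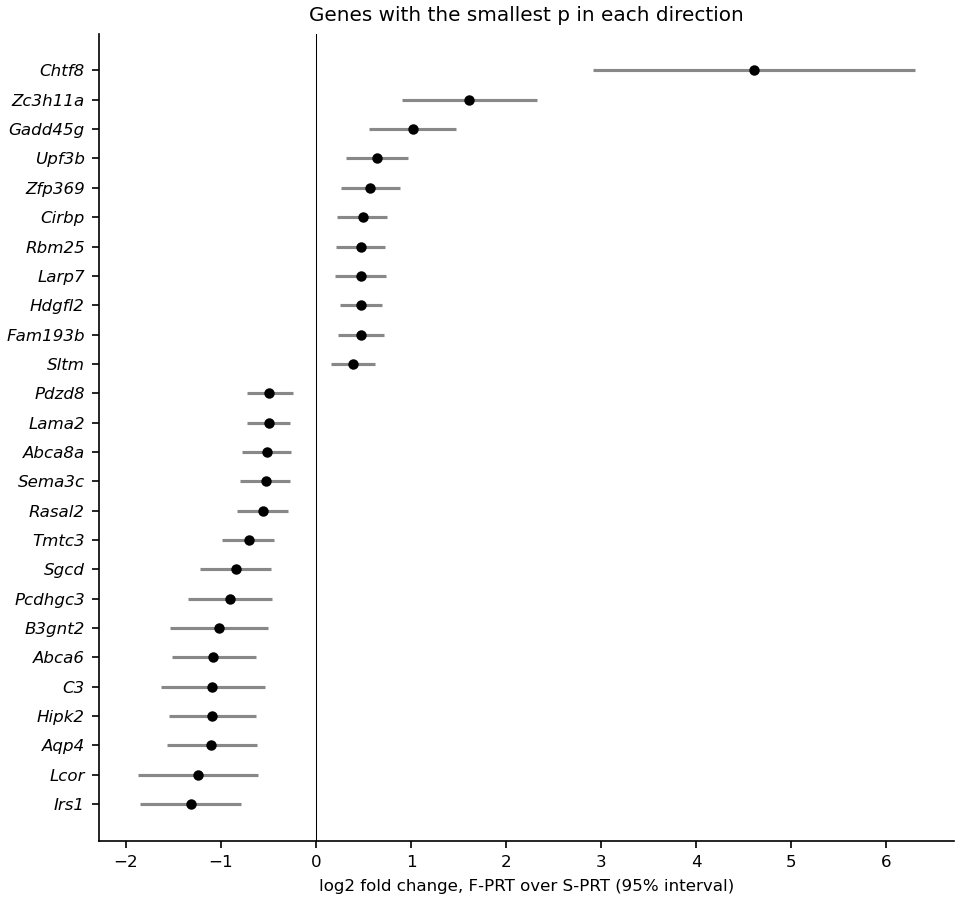
Log2 fold change, F-PRT over S-PRT, with its 95% interval from edgeR for the genes described in the text among the 15 with the smallest unadjusted p in each direction, predicted genes and pseudogenes left out. Chtf8 and Zc3h11a show 1 of 2 identifiers of the symbol. No interval crosses 0, by choice of the genes, and the adjusted p of the 15 in each direction was 0.36 to 0.47.

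Genes of RNA binding and splicing had positive values. All 21 tested of a list of such genes that respond to temperature had values at or above 0 (median 0.30), 12 had an unadjusted p under 0.05 against 5.12% of all genes, and in 12 all F-PRT libraries lay above all S-PRT libraries against 5.47%. Cirbp, the cold-inducible RNA-binding protein, was at 40.9, 34.7, 33.9 and 40 CPM in S-PRT and 47.2, 50.3 and 59.5 CPM in F-PRT (0.49 ± 0.12), with NR in between at 42 to 46.1 CPM. Rbm25, a splicing factor, was at 45.6, 48.3, 47.1 and 46.5 CPM against 60.1, 57.6 and 77 CPM (0.47 ± 0.12). In both genes the 4 S-PRT libraries were close together and F-PRT 4 was the highest. As list means, S-PRT scored -0.13, -0.02, 0.06 and 0.09 and F-PRT 0.21, 0.20 and 0.38, while NR scored 0.00 to 0.21 and reached the lower F-PRT libraries. With the length trend removed the median was 0.20 and 6 genes were under 0.05. Without any 1 library the median was 0.23 to 0.33 and 8 to 11 were under 0.05. With the replicate number as a block the median was 0.26 and 2 were under 0.05. With the block and the length trend removed these were 0.15 and 3.

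The 15 genes with the smallest p among higher values held more of this kind, and F-PRT 4 was the highest of the F-PRT libraries in 13. Larp7, which stabilises the 7SK RNA, was at 21.1 to 25 CPM in S-PRT and 27.2 to 35.6 CPM in F-PRT (0.47 ± 0.12). Upf3b, of nonsense-mediated decay, was at 7.49 to 9.94 CPM and 11.8 to 15.7 CPM (0.64 ± 0.15), and Sltm, a nuclear RNA-binding protein, at 21.6 to 25.4 CPM and 29.5 to 32.9 CPM (0.39 ± 0.10). Gadd45g, a stress-induced member of the growth arrest family, was at 4.26, 4.68, 6.18 and 5.48 CPM in S-PRT and 10.9, 7.45 and 12.9 CPM in F-PRT (1.02 ± 0.20). Its S-PRT libraries matched NR (4.24 to 6.57 CPM), and DESeq2 called it with an adjusted p of 0.0055. Hdgfl2, a chromatin reader, was at 27.5 to 30.3 CPM and 35.4 to 42.2 CPM (0.47 ± 0.10). Fam193b (0.47 ± 0.11) and the zinc finger gene Zfp369 (0.57 ± 0.14) also had no overlap. The symbols Chtf8 and Zc3h11a are each shared by 2 tested gene identifiers with opposite signs. For Chtf8 one was at no more than 0.327 CPM in S-PRT and at 1.72, 2.68 and 15.4 CPM in F-PRT (4.61 ± 0.76), and the other at 22.4 to 26.5 CPM against 14.6 to 23.7 CPM (-0.30). For Zc3h11a one was at 6.21 to 14.2 CPM against 20.6 to 44.5 CPM (1.61 ± 0.32), and the other at 19.8 to 26.2 CPM against 6.52 to 19.7 CPM (-0.89). The counts behind the higher values were whole in 1 library for Chtf8 and in none for Zc3h11a, so how reads were divided between identifiers is uncertain and neither value can be read as a difference of the gene.

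Transcripts of the translation machinery had small positive values. Of 47 cytosolic ribosomal protein genes, 46 were positive (median 0.23), 14 were under 0.05 with higher values (5.12% of all genes) and 11 had no overlap (5.47%). Rpl8, of the large subunit, was at 241, 218, 217 and 212 CPM in S-PRT and 261, 265 and 364 CPM in F-PRT (0.42 ± 0.14). Rps9, of the small subunit, was at 205 to 225 CPM and 254 to 384 CPM (0.49 ± 0.15), with no whole counts. F-PRT 4 was the high library: without it the median of the list was 0.07 and 3 genes were under 0.05. The numbers under 0.05 were 4 without S-PRT 2, without S-PRT 3 or without S-PRT 4. These genes are short, with a median length of 750 bases, and with the length trend removed the median was 0.07 and 6 were under 0.05. Nuclear genes of oxidative phosphorylation (median length 780 bases) were positive in 43 of 47 (median 0.19) with 1 under 0.05, Ndufv1 of complex I, at 540 to 651 CPM and 687 to 882 CPM (0.39 ± 0.13). Their median was 0.04 with the length trend removed and 0.07 without F-PRT 4. Of 11 long nuclear and non-coding transcripts 3 were under 0.05 with higher values (5.12% of all genes) and 3 were above without overlap (5.47%). Among them were Malat1 at 169 to 214 CPM and 222 to 320 CPM (0.50 ± 0.15, no whole counts) and Kcnq1ot1, antisense to Kcnq1, at 1.80 to 2.15 CPM and 2.52 to 3.34 CPM (0.65 ± 0.20). No source used here says whether counting took strand into account, so its reads and those of Kcnq1 cannot be told apart.

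Mitochondrially encoded transcripts ran the other way in 2 F-PRT libraries. They took 43.47%, 42.74%, 41.46% and 37.08% of the counts in S-PRT and 31.61%, 42.27% and 24.18% in F-PRT, or 41.2% ± 2.86 and 32.7% ± 9.09 (SD, n = 4 and 3), a difference of -8.5 percentage points. A permutation test, exact and two-sided, of the 35 divisions of the 7 libraries gave p = 0.17, where the smallest possible is 0.057. F-PRT 3 was among the S-PRT libraries and F-PRT 2 and 4 were below them, while NR ran from 30.63% to 43.77%. Of 13 mitochondrial mRNAs 12 were lower (median -0.47), 3 were under 0.05 with lower values (4.98% of all genes) and 2 were below without overlap (5.21%). The median was -0.90 with 10 under 0.05 without F-PRT 3 and -0.23 with 2 without F-PRT 4. The gene mt-Atp8, for a subunit of ATP synthase, was at 2300, 1860, 2010 and 2290 CPM in S-PRT and 819, 1660 and 711 CPM in F-PRT (-0.99 ± 0.27). The gene mt-Nd4l, for a subunit of complex I, with no whole counts, was at 1070 to 1290 CPM and 239 to 834 CPM (-1.26 ± 0.36).

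**Figure D5:**
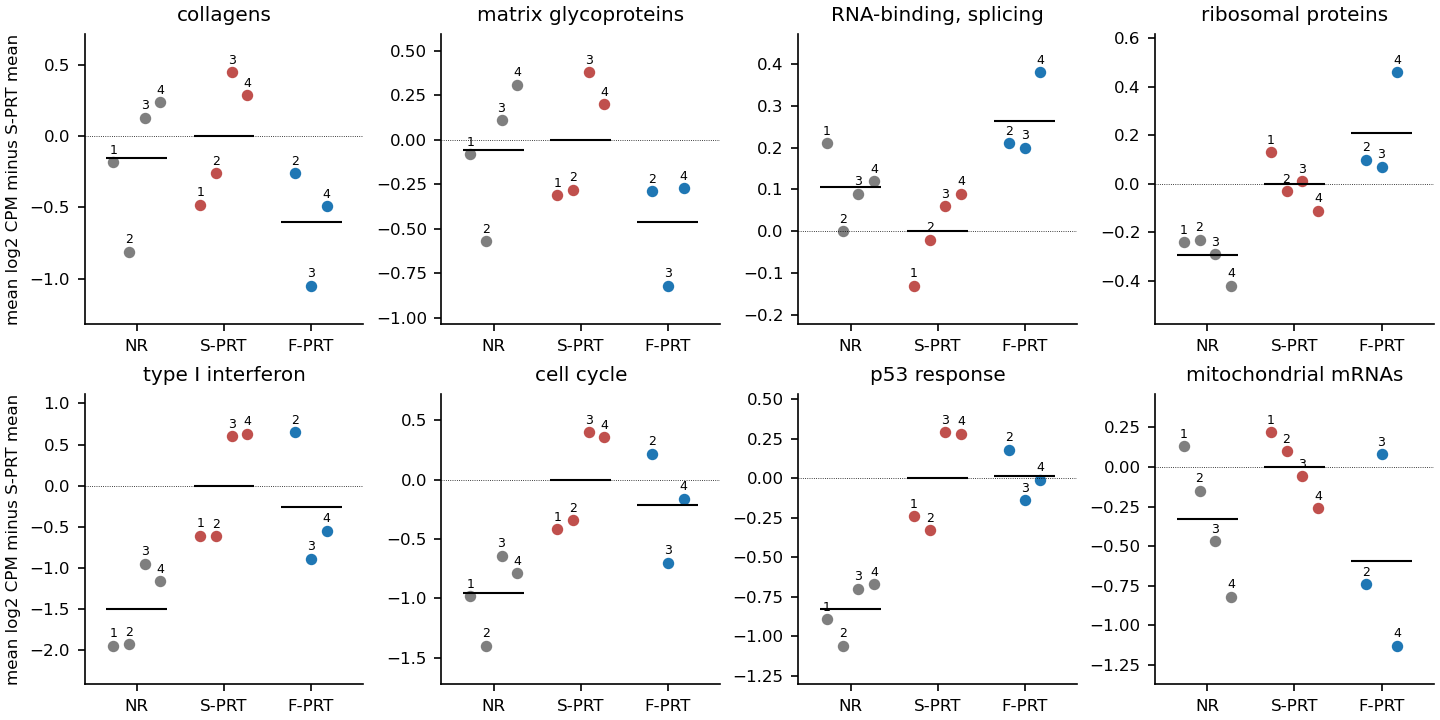
Mean log2 CPM over the members of 8 gene lists in each library, minus the S-PRT mean, with the replicate number beside each point and group means as lines. Collagens and matrix overlap between S-PRT and F-PRT with F-PRT 3 lowest, RNA-binding and splicing genes separate, and in the interferon list S-PRT 3, S-PRT 4 and F-PRT 2 (0.60, 0.63 and 0.65) lie apart from the other 4.

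Interferon-responsive genes split the irradiated libraries across the dose rates. The type I interferon list (34 genes, median -0.25, none at an unadjusted p under 0.05) scored -0.61, -0.62, 0.60 and 0.63 in S-PRT and 0.65, -0.89 and -0.55 in F-PRT, and -1.95 to -0.95 in NR. S-PRT 3, S-PRT 4 and F-PRT 2 were high and the other 4 were low, with every irradiated library above all NR libraries. Irf7, the factor that amplifies the response, was at 25.5, 26.1, 82.8 and 97.6 CPM in S-PRT, 104, 21.8 and 26 CPM in F-PRT and 4.09 to 9.76 CPM in NR. Its log2 fold change of -0.20 ± 0.62 had an interval of -1.58 to 1.18. Mx1, an antiviral GTPase, had the same split, at 1.14, 0.621, 2.61 and 2.94 CPM and 4.6, 0.821 and 0.652 CPM (0.11 ± 0.69). Leaving out F-PRT 2 gave a list median of -0.81 with 12 genes under 0.05, and leaving out S-PRT 4 gave a median of 0.00 with none. Ifi35 had the smallest p of the list, with a positive value (0.36 ± 0.25), and Ifi27l2a a negative one (-0.40 ± 0.31). All 16 guanylate-binding and immunity-related GTPases were negative (median -0.32), again with none under 0.05, but without S-PRT 4 only 4 were negative and the median was 0.04. Gbp9 was at -0.56 ± 0.33. In class I antigen presentation 13 of 18 were negative (median -0.08), and without S-PRT 4 only 2 were (median 0.31). Without F-PRT 3 the median of this list was 0.11. B2m, the light chain of class I, was at 173, 189, 365 and 433 CPM against 254, 132 and 187 CPM (-0.60 ± 0.34).

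Of 21 inflammatory genes 1 had all F-PRT libraries below all S-PRT libraries, a share near the 5.21% of all genes. Il1b, interleukin-1 beta, was at 0.717, 0.812, 1.55 and 1.66 CPM in S-PRT and 0.449, 0.383 and 0.51 CPM in F-PRT, a log2 fold change of -1.40 ± 0.40 (interval -2.29 to -0.52, edgeR adjusted p 0.47). NR was at 0.175 to 0.328 CPM, below every irradiated library, and the level is low. Over the 21 genes the median was -0.12, and 2 were under 0.05, the other being the macrophage growth factor Csf1 at 44 to 53.5 CPM against 34.1 to 46.9 CPM (-0.30 ± 0.13, but 0.02 on log2(TPM + 1)). Chemokines and their receptors (26 genes) had a median of -0.05 and none under 0.05, but -0.41 with 4 without F-PRT 4 and 0.14 with none without F-PRT 3. Ccl2, which draws monocytes, was at 1.82 to 6.64 CPM in S-PRT and 1.75 to 5.30 CPM in F-PRT (-0.13 ± 0.44), and its receptor Ccr2 at 6.03 to 12.6 CPM and 7.5 to 9.53 CPM (-0.15 ± 0.26, interval -0.74 to 0.43). For both genes F-PRT lay almost wholly within S-PRT and all irradiated libraries above NR. Markers of recruited monocytes and activated macrophages had a median of -0.16 over 23 genes (0.03 without F-PRT 3 and 0.02 without S-PRT 3), with 1 under 0.05: the integrin Itgam, at 4.64, 6.11, 8.91 and 7.89 CPM and 5.53, 3.28 and 3.40 CPM (-0.76 ± 0.26). Cd163, of resident macrophages, was at 3.59 to 6.35 CPM and 2.84 to 4.22 CPM (-0.34 ± 0.24), all below NR (10.4 to 14.8 CPM).

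Complement genes were lower in 16 of 18 (median -0.31). Of these, 4 were under 0.05 (4.98% of all genes had lower values at that p) and 1 was without overlap (5.21%). C3, the component on which the complement pathways converge, was at 62.4, 71.1, 130 and 86.5 CPM in S-PRT and 46.6, 32.2 and 45 CPM in F-PRT (-1.09 ± 0.25), without overlap, and DESeq2 called it with an adjusted p of 0.0055. NR spanned 31.1 to 121 CPM and covered every F-PRT library. F-PRT 3 was the lowest of the irradiated libraries. Without F-PRT 4, 7 of the 18 were under 0.05. Without F-PRT 3 or without S-PRT 3 the median was -0.18, 3 were under 0.05 and 12 were lower. The part of the fibroblast markers, given with the collagens, was not tested here either.

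Most genes of the DNA damage response overlapped between the dose rates. All F-PRT libraries lay above all S-PRT libraries in 1 of 33 p53 response genes and 2 of 23 genes of double-strand break repair (5.47% of all genes). They lay below in 0 of either list (5.21%). The 33 p53 response genes had a median of -0.03 with 1 under 0.05, and scored -0.24, -0.33, 0.29 and 0.28 in S-PRT, 0.18, -0.14 and -0.01 in F-PRT and -1.06 to -0.67 in NR. Cdkn1a, the cell cycle inhibitor p21, was at 24.9, 26.9, 68.8 and 61 CPM in S-PRT, 58.6, 38.9 and 53.9 CPM in F-PRT and 4.95 to 10.9 CPM in NR. Its log2 fold change was 0.15 ± 0.34 with an interval of -0.62 to 0.92. Gdf15, a stress cytokine under p53, was at 2.66, 1.58, 7.45 and 9.36 CPM and 8.30, 2.24 and 3.80 CPM (-0.16 ± 0.58). F-PRT thus lay inside the S-PRT spread for both genes. Gadd45a, of the same family as Gadd45g, was at 17.5 to 21.9 CPM and 20.9 to 28.6 CPM (0.35 ± 0.14). Among the 23 genes of double-strand break repair the median was -0.03, with 1 under 0.05 in each direction. The lower was the kinase Atm, which senses breaks, at 4.72 to 6.49 CPM and 3.33, 4.76 and 1.36 CPM (-0.80 ± 0.34). Cell cycle genes had a median of -0.21 over 38 genes with 28 negative and none under 0.05. Without F-PRT 3 their median was 0.00 with 20 negative, without S-PRT 4 it was -0.06 and without S-PRT 3 -0.10. Top2a, of dividing cells, was at 2.95, 3.34, 6.18 and 5.83 CPM and 4.71, 2.52 and 2.29 CPM (-0.54 ± 0.34). Of 25 cell death genes (median 0.01) 1 was under 0.05, with a higher value (5.12% of all genes). It was the survival factor Bcl2l1, at 16 to 21.4 CPM and 20.4 to 31.6 CPM (0.40 ± 0.16).

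Cardiomyocyte genes differed among themselves. Tcap, a small Z-disc protein that caps titin, was at 1300, 1300, 1380 and 1540 CPM in S-PRT and 1820, 1900 and 2200 CPM in F-PRT (0.52 ± 0.14), above the NR range of 1270 to 1510 CPM, and DESeq2 called it with an adjusted p of 0.0055. Its giant partner Ttn was at 2210, 2370, 2090 and 2380 CPM and 1650, 1790 and 1040 CPM (-0.60 ± 0.19). Both genes thus separated the groups, in opposite directions, but with the length trend removed Ttn was at -0.17 and Tcap at 0.34. The 25 sarcomere genes had a median of 0.04, with 2 under 0.05 higher (5.12% of all genes) and 3 lower (4.98%). Without overlap, 2 were above (5.47%) and 3 below (5.21%). Of 29 genes of calcium cycling and ion channels 19 were negative (median -0.16), 6 were under 0.05 with lower values (4.98% of all genes) and 4 had no overlap (5.21%). Ryr2, the channel that releases calcium from the sarcoplasmic reticulum, was at 979, 1020, 865 and 867 CPM and 576, 737 and 354 CPM (-0.75 ± 0.22, and -0.49 with the length trend removed). F-PRT 4 was the lowest for Ttn and Ryr2. With the length trend removed the list had a median of -0.08 and 2 under 0.05, without F-PRT 3 it had -0.29 and 12, without S-PRT 1 it had -0.10 and 3, and without F-PRT 2 or F-PRT 4 the medians were -0.06 and -0.07. The calcium pump Atp2a2 was at 9990 to 11700 CPM and 8330, 11000 and 5580 CPM (-0.36 ± 0.23, no whole counts).

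Stress genes of the cardiomyocyte were variable. Myh7, the slow myosin of the fetal programme, was at 47.5, 33.2, 63.8 and 149 CPM in S-PRT and 329, 179 and 54.3 CPM in F-PRT (1.35 ± 0.59, interval 0.04 to 2.66, no whole counts), with F-PRT 4 inside the S-PRT and NR ranges. The natriuretic peptide genes gave 23.7 to 181 CPM and 94.2 to 194 CPM for Nppa (0.40 ± 0.53, no whole counts) and 136 to 184 CPM and 149 to 249 CPM for Nppb (0.30 ± 0.17). NR was lower for Nppb, at 74 to 113 CPM. In fatty acid metabolism 25 of 31 genes were positive (median 0.12) and the 2 under 0.05 were negative (4.98% of all genes). One was Acsl1, which activates fatty acids, at 521 to 665 CPM and 394 to 535 CPM (-0.35 ± 0.15). The other was Cpt1a, which carries them into mitochondria, at 18.9 to 28.8 CPM and 20.1 to 20.3 CPM (-0.34 ± 0.15). Among 16 regulators of this programme (median -0.12), the corepressor Nrip1 was at 10.5 to 15.4 CPM and 8.70 to 9.53 CPM without overlap (-0.50 ± 0.14), and the coactivator Ppargc1a at 44.1 to 56.3 CPM and 30.8 to 48.5 CPM (-0.43 ± 0.16). Glycolysis (22 genes, median 0.06) had none under 0.05.

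Vascular genes depended on F-PRT 4. The 30 endothelial markers had a median of 0.14, with 2 under 0.05 with higher values (5.12% of all genes). When F-PRT 4 was left out the median was -0.18 with 4 under 0.05. Fabp4, a fatty acid carrier of capillary endothelium, was at 211, 235, 210 and 202 CPM in S-PRT and 212, 238 and 577 CPM in F-PRT (0.68 ± 0.30), so that only F-PRT 4 stood above the S-PRT range. Egfl7, secreted by endothelium, was at 42.9 to 56.7 CPM and 51.2 to 87.4 CPM (0.46 ± 0.18). The receptors Tek and Flt1 were at 15.6 to 20.3 CPM and 11.4 to 19.5 CPM (-0.23 ± 0.19) and at 26.3 to 37.5 CPM and 22.9 to 45.4 CPM (0.11 ± 0.22), every irradiated library below NR. Cxcl12 was also below NR in every irradiated library, at 38.8 to 45.3 CPM and 28.6 to 65.6 CPM (0.05 ± 0.25). Of 15 vascular growth factors (median -0.13), Pdgfd was at 6.62 to 9.51 CPM and 5.98 to 6.19 CPM (-0.46 ± 0.15) and Pdgfa, with no whole counts, at 13.8 to 16.2 CPM and 16.4 to 23 CPM (0.39 ± 0.13), the ligands of different PDGF receptors in opposite directions. Pericyte and smooth muscle markers had a median of 0.03 over 17 genes and -0.36 without F-PRT 4. Abcc9, the regulatory subunit of a potassium channel of pericytes and muscle, was at 183 to 221 CPM and 104 to 182 CPM (-0.53 ± 0.18).

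Genes that respond to handling and time of day were looked at because they can differ between collections. Among 20 circadian genes (median 0.03) 1 was under 0.05, with a higher value (5.12% of all genes). It was Dbp, an output of the clock, at 84.4 to 111 CPM in S-PRT and 121 to 147 CPM in F-PRT (0.42 ± 0.12, no whole counts). Among 23 immediate early genes (median -0.15), Egr1 was at 16.3, 10, 15.8 and 24.6 CPM and 5.57, 4.05 and 12.3 CPM (-1.17 ± 0.38) and Ier5 at 12.8 to 30.4 CPM and 27.9 to 46.8 CPM (0.73 ± 0.27). Among 24 heat shock proteins and chaperones (median -0.04) the inducible Hspa1a was at 2.87, 2.87, 7.73 and 9.17 CPM and 2.35, 1.92 and 3.12 CPM (-1.20 ± 0.43, no whole counts), where S-PRT 3 and 4 were the high libraries. The labels give no time of collection, and the part of handling in other values was not tested. Medians were 0.07 over 27 antioxidant genes, 0.01 over 20 genes of the integrated stress and unfolded protein responses and -0.11 over 18 genes of senescence. They were -0.24 over 10 genes of class II presentation, -0.19 over 18 markers of resident macrophages, -0.29 over 7 of T and NK cells and 0.04 over 13 of B and plasma cells. Leaving out 1 library turned several of these: the median was 0.16 without S-PRT 4 for class II presentation and for T and NK cells, 0.03 without S-PRT 3 for resident macrophages, 0.17 without F-PRT 3 for senescence and 0.13 without S-PRT 4 for immediate early genes. Of the 25 genes looked up whatever their values, among them Cdkn1a, Il1b and Myh7, log2 fold changes ran from -1.40 to 1.35 with 9 positive and 16 negative, and 1 had no overlap.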

How the data were processed

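Poly(A)-selected, directional RNA-seq libraries were made from RNA with an integrity number above 9, per the labels' protocols. The tools were cutadapt, FastQC, RSEM, STAR and edgeR, per the submitters' processing notes, which give no versions and name both GRCm39 and mm10. Per the file headers, the deposited values were expected counts and TPM, beside gene lengths in bases. TPM were scaled by the authors to a fixed sum, so they keep no depth. Of 55414 gene identifiers, 52081 (94.0%) matched a gene name, and the rest held at most 0.355% of the counts.

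Expected counts were rounded, filtered (minimum count 10, minimum total 15) and TMM-scaled, and the 7 irradiated libraries were fitted with edgeR 4.0.16 in R 4.3.3 (5 residual degrees of freedom). NR libraries were put on the same scale for display. Log2 CPM used a prior count of 2. Alternatives used DESeq2 1.42.0, limma 3.58.1 and sva 3.50.0, library size, other filters, TPM with a pseudocount of 1 or 0.1, a lowess trend on length as an offset, a replicate block and the omission of each library. The fit was tested on simulated data.

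The text names the 15 genes with the smallest p in each direction (mean log2 CPM of at least 1, without predicted genes and pseudogenes), up to 2 members of each list with the smallest p, and 26 genes looked up whatever their values, of which Il6 fell below the filter. Not every gene so chosen is printed, and some are not reported here. Members and lists were chosen with earlier results of these data known. Of the 150 genes so chosen, 105 had whole expected counts in all 7 libraries (to within 1e-09) and 22 in none. No pair of libraries within S-PRT or within F-PRT was alike within counting noise, and other pairs were not checked.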

Additional observations from a re-analysis of the deposited data

Results flagged for a closer look

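In groups of 4 libraries, Dixon's test of the most distant library was applied to each named gene and list and to the mitochondrial share. It marked 9 of 270 groups, where chance alone marks about 1 in 20, so the number is no more than chance gives. The ratio of gap to range was 0.887 for Sema3c in S-PRT (replicate 2 at 11.5 CPM, the others 9.91 to 10.1), 0.9 for Tek in S-PRT (replicate 2 at 20.3, the others 15.6 to 16) and 0.842 for Cpt1a in S-PRT (replicate 1 at 18.9, the others 26.9 to 28.8). For Abcc9 it was 0.83 in S-PRT (replicate 4 at 221, the others 183 to 189) and 0.839 in NR (replicate 2 at 267, the others 226 to 232). In NR it was 0.879 for Bcl2l1 (replicate 3 at 22.4, the others 16.2 to 16.9) and 0.867 for Smad7 (replicate 1 at 7.81, the others 9.47 to 9.76). Among list scores it was 0.909 for angiopoietin and VEGF ligands in NR (replicate 2) and 0.833 for heat shock proteins and chaperones in S-PRT (replicate 4). For Sema3c and Abcc9 all F-PRT libraries also lay below the other 3 S-PRT libraries.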

How the results depend on the processing

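The number of genes passing an adjusted p of 0.05 was 0 in edgeR and in 16 of 22 alternatives. It was 34 with DESeq2, 72 without a filter on low counts, 1 with limma-voom and sample quality weights, 4 on log2(TPM + 1) and 2 on log2(TPM + 0.1), and 0 to 1 when each library was left out, the 1 arising without F-PRT replicate 4. The cause was not tested. With library size in place of TMM, 1386 genes had higher and 116 lower values at an unadjusted p under 0.05, against 729 and 709. Leaving out a library gave 885 (without S-PRT replicate 4) to 2270 (without F-PRT replicate 3) such genes against 1438, and without S-PRT replicate 3 there were 904. The difference in mitochondrially encoded share was -9.2 points on TPM and -13.3 to -4.2 points without 1 library. Same-numbered libraries had negative correlations of their deviations (-0.36, -0.38 and -0.17 for numbers 2, 3 and 4), which gave no sign of pairing by number. With so few pairs these values cannot decide whether equal numbers share a batch, and the labels do not say. With the replicate number as a block, 0 genes passed, 674 had an unadjusted p under 0.05, and the mitochondrial difference was -7.7 points (exact sign-flip p = 0.5). No S-PRT library correlated best with its own number. Of 92 named genes, 77 kept their direction in every alternative run and 25 passed in at least 1, 20 of them with DESeq2. With the trend on gene length removed, 26 of the 92 had values more than 1.5 times smaller and 6 more than 1.5 times larger. With that trend alone removed, 0 of the 92 changed direction. The 15 genes that changed direction in at least 1 other alternative had log2 fold changes as follows. On log2(TPM + 1) and log2(TPM + 0.1) these were 0.40 and 0.44 for Abca8a, 0.02 and 0.02 for Csf1, 0.05 and 0.07 for Col4a5, 0.24 and 0.25 for Lamc1, 0.26 and 0.32 for Fn1, 0.07 and 0.07 for Tgfb1, 0.10 and 0.18 for Gdf15, 0.04 and 0.08 for Ccr2, and 0.08 and 0.08 for Ccl2. With library size they were 0.08 for Tgfb1, 0.01 for Gdf15, 0.01 for Ccr2 and 0.09 for Ccl2. With limma-voom they were 0.10 for Gdf15, 0.15 for Irf7, -0.17 for Flt1 and -0.34 for Cxcl12. With 1 surrogate variable they were 0.37 for Gdf15, 0.13 for Irf7, 0.07 for Ccr2, 0.18 for Ccl2 and -0.01 for Cxcl12. With the block they were -0.51 for Mx1 and -0.07 for Cxcl12, and with the block and the length trend removed -0.49 for Mx1 and -0.08 for Cdkn1a. Without 1 library the ranges that crossed 0 were -0.32 to 0.06 for Tgfb1, -0.05 to 0.41 for Cdkn1a, -0.80 to 0.28 for Gdf15, -1.28 to 0.17 for Irf7, -1.36 to 0.56 for Mx1, -0.31 to 0.02 for Ccr2, -0.55 to 0.25 for Ccl2, -0.22 to 0.30 for Flt1, -0.43 to 0.26 for Cxcl12 and -0.72 to 0.33 for Timp1. Depth limits low genes most: Il1b, at 0.383 to 1.66 CPM, rests on few counts.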
